A study of Homo sapiens with 29 samples.

Results

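The small heat shock proteins measured here were CRYAB, HSPB1, HSPB2, HSPB3, HSPB6, HSPB7 and HSPB8, which are 7 of the 22439 genes named on the arrays. They were chosen by family, and the family was selected on its response to ZNF148 knockdown, where CRYAB was lower at 24 h and higher later. That choice looked at values of all 10 groups, so the arrays of differentiation media may have entered it. All 7 had a probe among the 18398 genes tested, through 9 probes in all. The cells were LHCN-M2, a human myoblast line that was immortalized with telomerase and CDK4 and goes back to a selected clone, so that every culture stems from the same cells. Cultures received 20 nM siRNA against the transcription factor ZNF148 (siZNF148) or nontargeting siRNA (siControl). Cultures kept in growth media were sampled after 24, 48 or 96 h, and those moved to differentiation media (DIFF) after 48 or 96 h. The RNA of each was read on its own 1-colour Agilent array. Each of the 10 groups held 3 arrays, apart from siControl at 96 h in growth media with 2, which gives 29 arrays. The 24 h cultures were subconfluent and the later ones in growth media confluent.

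Small heat shock proteins share an alpha-crystallin domain, assemble into oligomers and hold unfolding proteins in a state from which ATP-driven chaperones can refold them. Muscle is rich in them, where they associate with desmin, actin, titin and filamin, and mutations in several members cause myopathy or motor neuropathy. CRYAB (alphaB-crystallin) and HSPB1 (Hsp27) bind intermediate filaments and actin, HSPB2 and HSPB3 form a complex with each other in muscle, HSPB7 is the cardiovascular member that binds filamin C, and HSPB8 works with the cochaperone BAG3 in selective autophagy. HSPB6 (Hsp20) is a member of heart, smooth and skeletal muscle.

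Values are log2 signals after quantile normalization, and a difference of 1 is a change of 2-fold. Levels of different probes are not compared. ZNF148 itself was lower in every siZNF148 group by both of its probes. By the brighter probe it lay between 8.52 and 9.83 on the siControl arrays and between 6.53 and 7.29 on the siZNF148 arrays. Of the 7 myoblast markers, MYOD1, MYF5, DES, CDH15, NCAM1 and ITGA7 were well above background on all 29 arrays, and PAX7 on 20. The epithelial markers EPCAM and CDH1 were well above background on 2 and 3 arrays. Of the markers of other cells, CDH5 (29 arrays), PECAM1 (26) and VWF (25) of endothelium and PTPRC (26) and CD3E (11) of leukocytes were also above it. So were ADIPOQ of adipocytes (4) and SOX10 of neural crest (3). With knockdown in DIFF media SOX10 was called higher at 48 h (1.28) and CDH1 at 96 h (2.58), with no siControl array well above background. No epithelial, adipocyte or neural crest marker was called lower in these comparisons. The mean of the 3 endothelial markers lay between 4.86 and 6.52 over the arrays and was lower with knockdown, without overlap, in growth media at 48 h (6.05 to 6.28 in siControl and 5.79 to 6.03 in siZNF148) and at 96 h (6.4 to 6.52 and 5.79 to 6.1). PTPRC lay between 4.51 and 7.04 and CD3E between 3.21 and 5.97 over the arrays. Their part in the results was not tested. One siControl array stood apart: on replicate 1 at 48 h in growth media the mean of 5 differentiated muscle markers (MYOG, CKM, ACTA1, MYH3 and TNNT3) was 15.0, against 7.69 and 7.59 on the other siControl arrays of that group. ZNF148 was 8.52 on that array. All 24 h arrays shared a slide and a scan, and time from 24 h to later cannot be told apart from slide, scan and confluence, so no such comparison is made. The labels call the arrays biological replicates.

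The sequences before the gene starts are shown for 4 of the members with a matched heat shock or MEF2 motif and not for HSPB6, whose signal lay near background, since 6 of the 7 members lay apart in the same direction at 48 and 96 h of knockdown. Promoters of 5 of the 7 members were matched in the RefSeq table (GRCh38.p14). Those of CRYAB and HSPB2 were not found there and were not searched. Within the 250 bases before the start, on both strands, the pattern GAANNTTC, a pair of heat shock element units, matched in HSPB1, HSPB6 and HSPB8. It matched in 5.78% of all 35114 promoters. The MEF2 pattern matched in HSPB3 and HSPB7, against 2.8% of all promoters. The E-box CANNTG matched in HSPB1, HSPB3, HSPB6 and HSPB8, against 61.8% of all. The TATA box TATAAA matched in HSPB3, HSPB6 and HSPB7, against 10.7%, and 1 of its matches in HSPB3 lies inside the MEF2 match. The CArG box matched in none of the 5, against 1.16% of all. The matches are letters in a window and show no binding. Capitals mark the heat shock element pair in HSPB1 (chr7:76302423-76302672, plus strand) and HSPB8 (chr12:119178681-119178930, plus strand), and the MEF2 match in HSPB3 (chr5:54455449-54455698, plus strand) and in a stretch of 30 bases of HSPB7 (chr1:16018106-16018135, minus strand). All are written 5′ to 3′ on the strand of the gene.
HSPB1: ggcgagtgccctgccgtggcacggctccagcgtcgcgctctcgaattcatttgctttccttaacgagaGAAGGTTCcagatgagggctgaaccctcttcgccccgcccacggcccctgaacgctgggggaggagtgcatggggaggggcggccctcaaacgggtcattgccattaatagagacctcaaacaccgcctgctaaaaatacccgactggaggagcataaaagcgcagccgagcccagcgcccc
HSPB8: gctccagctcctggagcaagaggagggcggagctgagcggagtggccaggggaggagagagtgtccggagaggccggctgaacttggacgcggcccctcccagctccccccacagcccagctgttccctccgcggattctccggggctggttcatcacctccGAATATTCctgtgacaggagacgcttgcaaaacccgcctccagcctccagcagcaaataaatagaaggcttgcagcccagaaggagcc
HSPB3: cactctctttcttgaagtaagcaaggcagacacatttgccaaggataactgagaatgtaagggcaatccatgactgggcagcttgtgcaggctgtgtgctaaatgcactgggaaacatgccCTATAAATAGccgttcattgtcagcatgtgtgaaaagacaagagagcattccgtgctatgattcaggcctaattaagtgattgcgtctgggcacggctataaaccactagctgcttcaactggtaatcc
HSPB7: atggagaggcCTAAATTTAGctagtagaca

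CRYAB was lower with knockdown at 24 h and higher at every later time. The siControl arrays at 24 h in growth media gave 12.38, 12.36 and 12.36, and the siZNF148 arrays gave 10.97, 10.99 and 11.13. At 48 h the siControl arrays gave 13.79, 12.48 and 12.33, and the siZNF148 arrays 15.04, 14.92 and 15.1. At 96 h the values were 12.62 and 12.63 against 15.32, 15.22 and 15.29. None of these groups overlapped, and the differences, siZNF148 minus siControl, were -1.34 (SE 0.218), 2.15 (SE 0.218) and 2.65 (SE 0.244). In DIFF media at 48 h the siControl arrays gave 13.06, 12.85 and 12.77 and the siZNF148 arrays 15.3, 15.43 and 15.33. At 96 h in DIFF media they gave 13.81, 13.8 and 13.93 against 15.18, 15.27 and 15.26. CRYAB was again higher with knockdown in both, by 2.46 and 1.39. These contrasts, like all knockdown differences of CRYAB, carry no test, because the gene was chosen for this pattern.

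Ordered by group mean, CRYAB ran from siZNF148 at 24 h (11.03) and siControl at 24 h (12.37) through siControl in growth media at 96 h (12.63) and 48 h (12.87) to siControl in DIFF media at 48 h (12.89) and 96 h (13.85), and then to the siZNF148 groups between 15.02 and 15.35. The ranges of neighbours overlapped among siControl growth 96 h, siControl growth 48 h and siControl DIFF 48 h, and again among the top 3, which were siZNF148 DIFF 96 h, growth 96 h and DIFF 48 h. The lowest and highest group mean of CRYAB differed 20-fold. That span was 85.3-fold for HSPB3, 53.1-fold for HSPB7, 33.7-fold for HSPB2, 15.5-fold for HSPB8 and 3.55-fold for HSPB1. None is given for HSPB6, whose lowest group, siZNF148 at 24 h, had no array well above background.

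**Figure D1:**
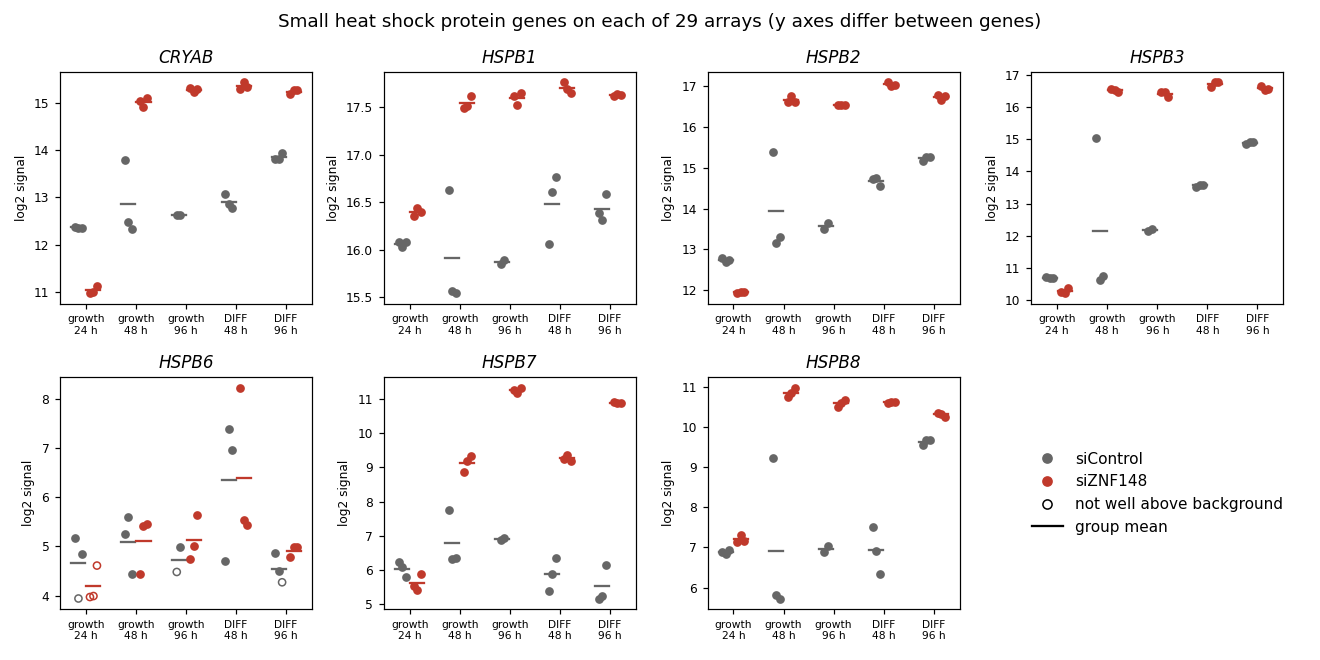
Log2 signal (y axes, which differ between genes) of the brightest probe of each member on each array, by medium and time (x axes), with siControl in grey and siZNF148 in red. Lines are group means and open circles are arrays not well above background. Apart from HSPB6, the siZNF148 arrays at 48 and 96 h lie above the siControl arrays of the same medium and time.

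HSPB2 is the neighbour of CRYAB on chromosome 11. Its siControl arrays at 24 h gave 12.78, 12.69 and 12.75, and its siZNF148 arrays 11.93, 11.97 and 11.96. At 48 h in growth media the values were 15.38, 13.15 and 13.3 against 16.61, 16.76 and 16.59, and at 96 h they were 13.51 and 13.65 against 16.54, 16.53 and 16.53. As for CRYAB, the groups were apart at each time, lower with knockdown at 24 h by 0.79 and higher later, by 2.71 and 2.95 in growth media. Without the siControl array that stood apart the 48 h difference was 3.43 (SE 0.0704). In DIFF media the siControl arrays gave 14.71, 14.75 and 14.55 at 48 h and 15.17, 15.26 and 15.25 at 96 h, and the siZNF148 arrays gave 17.08, 17.0 and 17.01 and then 16.77, 16.66 and 16.74.

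HSPB3 had the widest span. At 24 h its siControl arrays gave 10.73, 10.68 and 10.68 and its siZNF148 arrays 10.27, 10.22 and 10.38. At 48 h in growth media the siControl arrays gave 15.03, 10.64 and 10.75, of which the first is the array that stood apart, and the siZNF148 arrays gave 16.57, 16.54 and 16.45. At 96 h the values were 12.14 and 12.21 against 16.47, 16.46 and 16.3. Knockdown groups were thus higher by 4.38 (SE 0.644) and 4.23 (SE 0.72) without overlap. Without the array that stood apart the 48 h difference was 5.83 (SE 0.0699). In DIFF media the siControl arrays went from 13.51, 13.59 and 13.59 at 48 h to 14.84, 14.92 and 14.91 at 96 h, while the siZNF148 arrays gave 16.61, 16.76 and 16.76 and then 16.66, 16.53 and 16.55.

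HSPB7 was the only member called higher at 96 h than at 48 h after knockdown, in either medium. In growth media its siZNF148 arrays gave 8.87, 9.19 and 9.32 at 48 h and 11.27, 11.17 and 11.33 at 96 h. In DIFF media they gave 9.24, 9.35 and 9.2 at the earlier time, then 10.91, 10.87 and 10.87. The siControl arrays lay between 6.32 and 7.75 at 48 h and gave 6.87 and 6.94 at 96 h in growth media, and in DIFF media they gave 5.39, 5.9 and 6.35 and then 5.17, 5.24 and 6.16. At 24 h HSPB7 was 6.25, 6.08 and 5.79 in siControl and 5.53, 5.42 and 5.88 in siZNF148, and these groups overlapped.

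The siControl group means of HSPB8 lay between 6.9 and 6.96, except for 9.64 at 96 h in DIFF media. In growth media its siControl arrays gave 6.9, 6.85 and 6.93 after 24 h, then 9.22, 5.81 and 5.73, and last 6.89 and 7.03, where 9.22 is the array that stood apart. In DIFF media they gave 7.52, 6.92 and 6.34 at 48 h, and 9.55, 9.68 and 9.68 were the values at 96 h. The siZNF148 arrays gave 7.14, 7.31 and 7.16 at 24 h and lay between 10.26 and 10.98 at all later times. With knockdown the growth media groups were higher by 3.93 and then 3.64, without overlap, and the former was 5.08 (SE 0.188) without the array that stood apart.

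HSPB1 was read by 3 probes, and after 24 h they did not move together with knockdown. At 24 h all 3 were higher with knockdown, without overlap, by 0.34, 0.45 and 0.55 from the brightest to the dimmest. The brightest probe was higher with knockdown in growth media by 1.63 at 48 h and 1.73 at 96 h, and the second probe by 1.87 and 1.77. The dimmest was lower, by -0.99 and -1.16. Over the 29 arrays the brightest and the second probe correlated at 0.993 and the brightest and the dimmest at -0.75, as a description over arrays that share slides and groups. In DIFF media at 48 h the dimmest probe gave 9.42, 9.81 and 10.2 in siControl and 7.32, 7.31 and 7.17 in siZNF148, against 16.06, 16.61 and 16.76 and then 17.76, 17.69 and 17.65 for the brightest. All 3 probes carry the same RefSeq transcript in the files and all were well above background on 29 arrays. The direction of HSPB1 with knockdown after 24 h thus depends on the probe. What the dimmest probe measures was not tested.

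**Figure D2:**
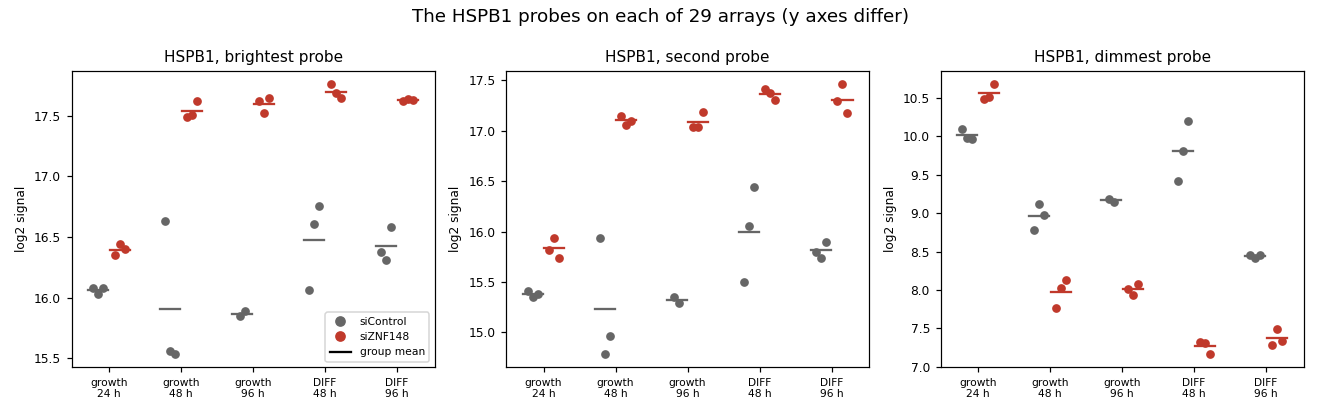
Log2 signal (y axes, which differ between panels) of the HSPB1 probes on each array, by medium and time (x axes), with siControl in grey, siZNF148 in red and group means as lines. After 24 h the siZNF148 arrays lie above siControl for the brightest and second probes and below it for the dimmest, where the DIFF 48 h means are 9.81 and 7.27.

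HSPB6 was near background. It was well above background on 23 of 29 arrays and on none of the 3 siZNF148 arrays at 24 h. Its arrays scattered within groups: at 48 h in DIFF media the siControl arrays gave 4.7, 7.39 and 6.96 and the siZNF148 arrays 8.23, 5.53 and 5.44. The groups overlapped in every knockdown comparison, and the differences ran from -0.47 to 0.4. Between 48 and 96 h in siZNF148 DIFF cultures its arrays did not overlap, but the difference of -1.49 (SE 0.639, limma adjusted p = 0.093) did not pass.

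In growth media 1 of 7 members lay apart by more than 2-fold at 24 h, which was CRYAB, lower. Of all genes tested, 3.32% were apart and lower and 2.92% apart and higher. At both 48 and 96 h, 6 of 7 members, all but HSPB6, lay apart and higher, against 11.8% of genes higher and 12.4% lower at 48 h and 13.2% and 13.0% at 96 h. The median difference of the members was -0.43, 2.32 and 2.95 at the 3 times, and that of all genes 0, -0.05 and -0.03. The family was chosen on these contrasts, so these counts are a description. In whole cultures, fewer cells that make an RNA and less of it per cell cannot be told apart.

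**Figure D3:**
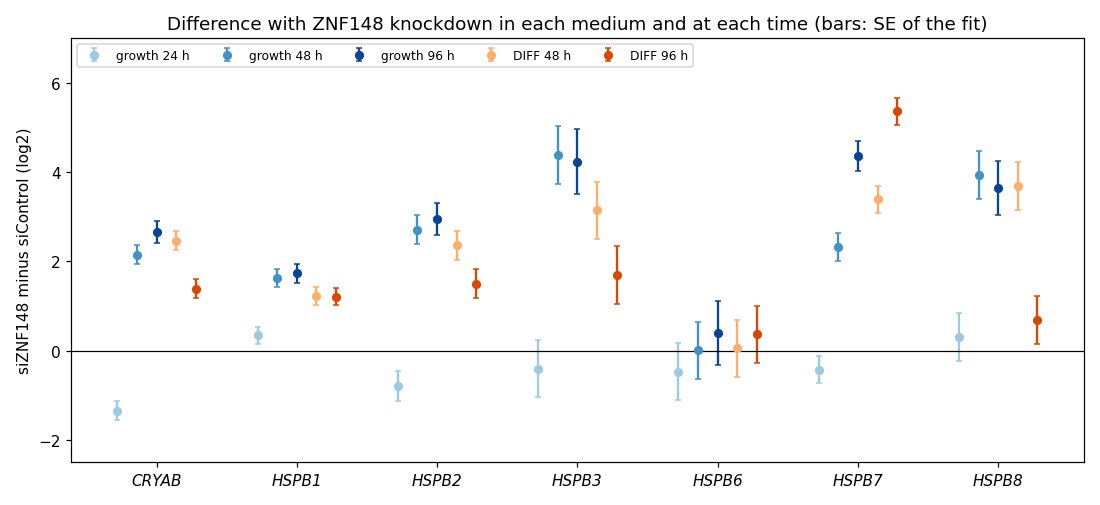
Difference in log2 signal, siZNF148 minus siControl (y axis), for the brightest probe of each member (x axis) in each medium and at each time (colours), with bars for the SE of the fit over 29 arrays. The growth 24 h points lie at or below 0.34, and at the later times the members other than HSPB6 lie above 0, with HSPB7 at 5.36 in DIFF media at 96 h.

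The differences in DIFF media were tested for the 6 members other than CRYAB, by limma over all tested probes. The later rise that chose the family may include the DIFF arrays, and most members followed CRYAB over the arrays. These tests, and those of the change with time below, may thus not be independent of the choice. At 48 h HSPB1, HSPB2, HSPB3, HSPB7 and HSPB8 rose with knockdown, which is 5 of 6, against 15.1% of genes that rose and 17.3% that fell. HSPB8 rose most, 12.9-fold (log2 3.68, SE 0.536, limma adjusted p = 4.01e-06). HSPB7 rose 10.4-fold (adjusted p = 3.14e-09), HSPB3 8.83-fold (adjusted p = 0.000246), HSPB2 5.13-fold (adjusted p = 1.89e-06) and HSPB1 by its brightest probe 2.33-fold (adjusted p = 1.32e-05). The second HSPB1 probe rose 2.57-fold and the dimmest fell 5.82-fold (limma adjusted p = 7.47e-13). HSPB6 differed by 0.05 (SE 0.639). On each of the 3 slides that held 1 array of both groups, the 5 members were higher with knockdown, from 1.01 for HSPB1 to 4.24 for HSPB8.

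At 96 h in DIFF media 4 of the 6 rose, HSPB1, HSPB2, HSPB3 and HSPB7, against 10.5% of genes that rose and 12.8% that fell. HSPB7 rose 41.1-fold (log2 5.36, SE 0.304, limma adjusted p = 4.81e-12), the largest difference of any member in these comparisons. HSPB2 rose 2.83-fold (adjusted p = 0.000556) and HSPB1 2.31-fold (adjusted p = 2.18e-05), with its dimmest probe 2.11-fold lower. HSPB3 rose 3.23-fold with a limma adjusted p of 0.035, and its SE depended on the siControl array that stood apart, which is in neither group compared: it was 0.644 over 29 arrays and 0.0625 over the other 28, where the adjusted p was 9.49e-15. Leaving out any array of either group compared ended the HSPB3 call, with limma adjusted p from 0.067 to 0.0741. On the slides that held both groups, HSPB7 was higher by 4.71 to 5.66 and HSPB1 by 1.06 to 1.29. HSPB8 differed by 0.68 (SE 0.536, limma adjusted p = 0.33), with 9.55, 9.68 and 9.68 in siControl below 10.36, 10.32 and 10.26 in siZNF148. Over the 28 arrays its SE was 0.168 and its limma adjusted p 0.00203, with the difference still under 2-fold.

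The knockdown difference in DIFF media changed with time for HSPB7 and HSPB8, in opposite directions. The difference at 96 h minus that at 48 h was 1.97 for HSPB7 (SE 0.429, limma adjusted p = 0.000995) and -3.01 for HSPB8 (SE 0.759, limma adjusted p = 0.00361). So by the brightest probes 1 member of 6 passed in each direction, against 8.13% of genes higher and 8.65% lower. The dimmest HSPB1 probe passed too, at 1.46 (SE 0.192, limma adjusted p = 3.53e-06), while the brightest gave -0.02. HSPB2 and HSPB3 changed by -0.86 and -1.45 without passing (limma adjusted p = 0.174 and 0.255). Over the 28 arrays HSPB3 passed too (limma adjusted p = 1.1e-10).

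In siControl cells 3 of the 6 members other than CRYAB rose and 1 fell with DIFF media at 96 h, against 6.81% and 8.26% of genes. These comparisons use the siControl growth arrays of the contrasts that chose the family, and no p is given for CRYAB where growth arrays enter. The slide of both siControl growth arrays held no siControl DIFF array of 96 h, so there is no value within a slide, and with slide as a random block the count did not change. HSPB3 rose 6.56-fold (limma adjusted p = 0.00508), HSPB8 6.41-fold (adjusted p = 0.00123) and HSPB2 3.13-fold (adjusted p = 0.00109). CRYAB was 2.33-fold higher. HSPB7 fell 2.61-fold (log2 -1.38, SE 0.339, limma adjusted p = 0.00277). The HSPB7 fall was -0.68 with normexp background correction and then under 2-fold. With only the arrays of the comparison fitted, its limma adjusted p was 0.051. HSPB1 differed by 0.55 by its brightest probe (adjusted p = 0.0562 by limma), while its dimmest went the other way, at -0.73 (adjusted p = 0.000619 by limma). So HSPB7 was lower in DIFF media in siControl cells, while it was higher with knockdown.

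At 48 h 0 of these 6 members passed in siControl cells, against 7.73% of genes higher and 8.19% lower, and 2 members had a limma adjusted p under 0.05 without passing 2-fold, HSPB1 (0.57, higher) and HSPB7 (-0.93, lower). Without adjustment 4 members had a limma p under 0.05, and the methods' test called 0. This count turned on the array that stood apart. Without it HSPB2, HSPB3 and HSPB8 were higher by 1.45, 2.87 and 1.16 (limma adjusted p = 1.1e-12, 3.22e-17 and 3.61e-05). That array was left out after the data were seen, and these members were themselves high on it. Its removal thus favours a rise, and these p values are no independent support.

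After knockdown no member differed between media by the threshold. These comparisons use the siZNF148 growth arrays of the contrasts that chose the family. Of the 6 members other than CRYAB 0 passed at 48 h, against 1.11% of genes higher and 2.85% lower, and 0 passed at 96 h, against 1.45% and 4.98%. By its brightest probe no member had an unadjusted limma p under 0.05 in either comparison, and the methods' test called 0. The dimmest HSPB1 probe was lower in DIFF media by -0.71 and -0.64 (limma adjusted p = 0.000905 and 0.00136), under 2-fold. Without the siControl array that stood apart, which narrows the shared spread, HSPB2 (0.37, limma adjusted p = 0.000204) and HSPB3 (0.19, limma adjusted p = 0.0467) had an adjusted p under 0.05 at 48 h, as had HSPB2 at 96 h (0.19, limma adjusted p = 0.0305), all under 2-fold. The medians of the 7 members with all arrays were 0.19 and -0.04. The differences of CRYAB were 0.33 (SE 0.218) and -0.04 (SE 0.218) and those of HSPB3 0.19 and 0.17 (SE 0.644).

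Between 48 and 96 h HSPB7 rose in siZNF148 cells in both media. It rose 4.38-fold in growth media (limma adjusted p = 2.02e-05) and 3.08-fold in DIFF media (limma adjusted p = 0.000288) and was the only member to pass in each. The growth arrays here are those of the contrasts that chose the family, so the tests over time in growth media are not independent of that choice. On the slides that held both groups it was higher by 1.98 to 2.3 and by 1.52 to 1.71. Of all genes, 4.15% rose and 1.81% fell in growth media, and 4.35% rose and 3.70% fell in DIFF media. In siControl cells in DIFF media HSPB8 rose 6.53-fold (log2 2.71, SE 0.536, limma adjusted p = 0.000413) and HSPB6 fell by 1.81 (SE 0.639, limma adjusted p = 0.0344), against 5.76% of genes that rose and 4.19% that fell. The HSPB6 groups overlapped, and without siControl DIFF 48 h replicate 2 the adjusted p was 0.185. The dimmest HSPB1 probe also passed and was lower by -1.36 without overlap (limma adjusted p = 9.42e-08), while the brightest gave -0.05. CRYAB differed by 0.95 (limma adjusted p = 0.00159), just under 2-fold, and HSPB3 by 1.33 (adjusted p = 0.131 with all 29 arrays and 3.03e-12 with 28). In siControl cells in growth media 0 of the 6 members other than CRYAB passed, against 0.419% of genes higher and 0.0326% lower. No member had an unadjusted limma p under 0.05 there, the methods' test called 0, and without the array that stood apart HSPB3 and HSPB8 were higher by 1.48 and 1.19.

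The members stood beside the markers of differentiated muscle. The mean of the 5 markers ran from 3.95 to 4.39 in siControl and 4.12 to 4.21 in siZNF148 at 24 h. It lay between 16.2 and 16.69 on the 12 siZNF148 arrays after 24 h. In siControl cells it gave 7.59 to 15.0 and 10.24 to 10.3 in growth media and 9.99 to 11.81 and 14.09 to 14.37 in DIFF media. On the array that stood apart CRYAB (13.79), HSPB2 (15.38), HSPB3 (15.03) and HSPB8 (9.22) were also above the other siControl arrays of its group. At 24 h CKM and TNNT3 were well above background on none of the 6 arrays, MYOG on 1, ACTA1 on 3 and MYH3 on 5, so the marker mean there lies near background. The part of differentiation in the members' differences was not tested.

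**Figure D4:**
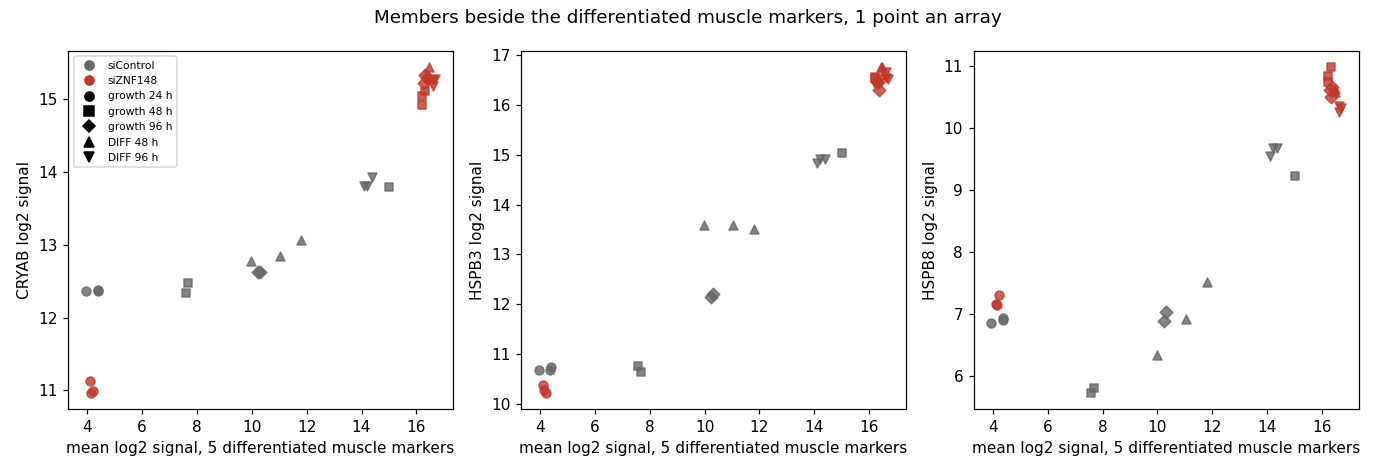
Log2 signal of CRYAB, HSPB3 and HSPB8 (y axes) beside the mean log2 signal of 5 differentiated muscle markers (x axes), with 1 point an array, siControl in grey, siZNF148 in red and a symbol for each medium and time. The siControl array at 15.0 on the x axis is the 48 h growth array that stood apart, and at 24 h the marker means lie between 3.95 and 4.39 in both groups, near background.

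Over the 29 arrays the gene outside the family most like CRYAB, among 12384 genes well above background on every array, was HIPK3 (Pearson 0.985), a protein kinase. CORO6 (0.979), TSPAN31 (0.977), MYL6B (0.976), a myosin light chain, and SECISBP2L (0.975) followed. The most opposed were FANCG (-0.975), a DNA repair gene, HAUS1 (-0.974), a spindle gene, and CNRIP1 (-0.973). HIPK3 was lower with knockdown at 24 h by -0.61 and higher at 48 h by 1.71. Within the family CRYAB correlated at 0.981 with HSPB2, 0.964 with HSPB3, 0.901 with HSPB8, 0.848 with HSPB1, 0.843 with HSPB7 and 0.3 with HSPB6. These correlations carry no test, as the arrays share groups and slides.

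The counts of other chaperone genes with knockdown in DIFF media stand beside 15.1% of all genes that rose and 17.3% that fell at 48 h, and 10.5% and 12.8% at 96 h. Of the other small heat shock proteins, CRYAA, the lens crystallin, rose at 48 h (log2 1.14, limma adjusted p = 1.29e-06), and 1 of 2 tested passed. Of the heat shock factors, the transcription factors of heat shock genes, 1 of 3 passed at 48 h: HSF4 fell by 1.52 (limma adjusted p = 1.03e-06). Neither list had a gene past the threshold at 96 h.

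In the HSP70 family and its cofactors 5 of 21 rose (23.8%) and 2 fell (9.52%) at 48 h, and 0 rose and 4 fell (19.0%) at 96 h. The largest rises at 48 h were BAG2 (1.44) and HSPA4L (1.27), with HSPA9, the mitochondrial member, also at 1.27, and the falls were HSPA1B (-1.72) and HSPA2 (-1.35). At 96 h HSPA1A (-1.58), HSPA1B (-1.83), HSPA1L (-1.28) and HSPA13 (-1.25) fell. HSPA1A and HSPA1B are near-identical genes whose probes may share signal. The medians were 0.31 and -0.16, against -0.05 and -0.06 over all genes.

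In the HSP40 family, which hands clients to HSP70, 3 of 13 rose (23.1%) and 1 fell (7.69%) at 48 h, and 1 rose (7.69%) and 2 fell (15.4%) at 96 h. DNAJA4, well above background on 2 of 3 siControl arrays in the first of these comparisons, rose by 7.11 and 3.17, and DNAJB1, the heat-inducible member, fell by 1.53 and 1.88. DNAJB4 (1.56) and DNAJA3 (1.08) also rose at 48 h, and DNAJB6 (-1.49) fell at 96 h. In the HSP90 family and its cochaperones 4 of 13 rose (30.8%) and 2 fell (15.4%) at 48 h, led by UNC45B, the myosin chaperone of muscle (5.37), and STIP1 (1.71), with UNC45A (-1.6) and FKBP5 (-1.59) lower. At 96 h FKBP5 (-1.19) and UNC45A (-1.13) fell and 0 rose. Of 11 chaperonin genes CCT2 (1.4) and CCT7 (1.1) rose at 48 h (18.2%), and CCT5 (-1.06) fell at 96 h (9.09%). The medians at 48 h were 0.56, 0.6 and 0.75 for these 3 lists, and 0.1, 0.01 and 0.01 at 96 h.

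Among partners and clients of chaperone-assisted selective autophagy, 3 of 11 rose (27.3%) and 4 fell (36.4%) at 48 h in DIFF media. TTN, the titin gene (4.71), and DES, the desmin gene (1.32), rose most, and SYNPO2 (-2.26) and SQSTM1 (-2.18) fell most. BAG3, the partner of HSPB8, rose by 1.2. At 96 h DES rose by 1.13 and SYNPO2 fell by 2.1, 1 gene in each direction (9.09%). With DIFF media in siControl cells 2 of the 11 rose (18.2%) and 0 fell at 48 h, against 7.73% and 8.19% of all genes. At 96 h 2 rose (18.2%) and 1 fell (9.09%), against 6.81% and 8.26%. Among those that rose, FLNC, the filamin of muscle, gave 2.46 at 48 h and 1.95 at 96 h. These gene values are limma log2 differences past the threshold of an adjusted p under 0.05 and 2-fold.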

How the data were processed

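RNA of LHCN-M2 cultures was read on 29 Agilent 1-colour arrays in 10 groups, which were taken from the sample titles. The authors deposited scanner files whose intensities are background-subtracted spot signals on a linear scale, made with Agilent Feature Extraction (10.7.3.1 in the headers), and a matrix of log2 values that the authors had quantile-normalized. The log2 values made here differed from the deposited log2 values by at most 0.0126 for the probes of the members and ZNF148, so the latter are no independent check. Builds differ between headers (14 name hg19, 15 none), and coordinates are given for promoters alone.

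In R 4.3.3 with limma 3.58.1, control and outlier spots were left out, spots of a probe averaged on the log2 scale, and arrays quantile-normalized. A probe had to be well above background on 2 arrays or more, and the 38714 such probes were fitted in 1 model with 10 group means (lmFit, eBayes). Calls needed a two-sided Benjamini-Hochberg adjusted p under 0.05 over all tested probes and a difference of more than 2-fold. Probes were named by RefSeq accession, and a gene is given by its brightest tested probe. The script was tested on simulated data. Between 41.5% and 56.5% of probes were well above background on an array, and the number of arrays limits the precision. The members, gene lists and tests were chosen with earlier results of these data known. Named genes were the members, ZNF148, called genes of fixed lists (the 2 largest each way where over 4) and the genes most and least like CRYAB, and BAG3, FLNC and HSPA9 were named besides after their values were seen. Alternatives covered scaling, background correction, the deposited values, filters, the arrays fitted, variance models, array weights, slide and replicate blocks, probe averaging and the methods' test. Each array of a comparison was also left out in turn. A fit of 28 arrays was added after the data were seen. One marker of the leukocyte list, and the mean of that list, are not reported here.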

Additional observations from a re-analysis of the deposited data

Results flagged for a closer look

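Among the 6 members tested, the effect of knockdown in DIFF media differed between 48 and 96 h for HSPB7 and HSPB8, by the contrast of the 2 effects in the limma fit. For HSPB7 the effect was larger at 96 h by 1.97 (SE 0.429, limma adjusted p = 0.000995), with siZNF148 above siControl on all 3 arrays of both times. For HSPB8 it was smaller at 96 h by -3.01 on the log2 scale (SE 0.759, limma adjusted p = 0.00361), with siControl HSPB8 at a mean of 6.93 at 48 h and 9.64 at 96 h. Leaving out each array of the groups compared in turn kept the count of members at 2. Without the siControl growth array at 48 h that stood apart, HSPB3 passed too (-1.45, limma adjusted p = 1.1e-10). These counts use the brightest probe of each member. With all arrays the dimmest HSPB1 probe also passed (1.46, limma adjusted p = 3.53e-06), while its brightest gave -0.02. The tests may not be independent of the choice of the family.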

How the results depend on the processing

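The counts of members apart by more than 2-fold with knockdown in growth media, 1 at 24 h and 6 at 48 and at 96 h, stayed at these values when each array was left out. In DIFF media the 5 members called at 48 h ranged from 5 to 5 and the 4 called at 96 h were 3 whichever array of the comparison was left out, since HSPB3 was lost. Leaving out each array of the comparison gave 0 to 3 members between media in siControl cells at 48 h (main 0). For time it gave 0 to 2 in siControl growth media (main 0), 1 to 3 in siControl DIFF media (main 2) and 1 to 2 in siZNF148 DIFF media (main 1). Between media in siControl cells at 48 h, array weights gave 3 and no fold threshold gave 2. For time in siControl DIFF media no filter and normexp background correction each gave 1, where HSPB6 was lost. Of 262 alternative counts, 247 stayed within 1.5 times the main count. With all HSPB1 probes averaged, HSPB1 in DIFF media gave 0.01 at 48 h and 0.54 at 96 h and was lost at both. Slide as a random block changed no count of members. Same-numbered arrays did not deviate together (correlations of deviations from -0.161 to 0.123), so no shared effect of the replicate number was seen. With so few arrays a group this cannot tell whether the numbers pair samples. Counts for media and time cover all 7 members, CRYAB included. In the main fit CRYAB is among the 5 for media in siControl cells at 96 h. Its part in that count is no support, since the growth arrays compared are among those that chose the family. With the replicate block the counts were 5 and 4 for knockdown in DIFF media at 48 and 96 h, 2 for their difference, 0 and 5 for media in siControl cells, 0 and 0 in siZNF148 cells, and 0, 1, 2 and 1 for time in siControl growth, siZNF148 growth, siControl DIFF and siZNF148 DIFF, and so changed no count. The methods' test cannot be applied to the difference between effects. HSPB6 was limited by its signal near background.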
